A study of Caenorhabditis elegans with 16 samples.

Results

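The transcripts of 10 genes of Caenorhabditis elegans were examined, the kinases of insulin/IGF signalling and the stress transcription factors that they control. They were picked by gene name. They are the receptor daf-2, the kinases age-1, pdk-1, akt-1, akt-2 and sgk-1, the phosphatase daf-18 and the transcription factors daf-16, skn-1 and hsf-1. The rule uses no measured value, but these genes and the lists below were chosen with earlier results of these data known. Counts set against the share of all genes are therefore descriptions and not tests. All 10 were found in both tables of the study, out of 29351 genes in the table of normalized counts, and all 10 were among the 15799 genes that entered the tests, those whose mean count reached 10.

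The study compared wild type (N2) with rnp-6(G281D), a point mutant of the worm ortholog of the splicing factor PUF60, on lawns of E. coli OP50 or of the K12 strain BW25113. RNA of whole day 1 adults, synchronized by egg laying and grown for 3 days on their diet, was sequenced from 4 samples in each of the 4 groups. The groups were thus wild type on OP50, rnp-6(G281D) on OP50, wild type on BW25113 and rnp-6(G281D) on BW25113, and none carried a transgene according to the labels. The comparisons ask whether genotype, diet or their combination moves these transcripts.

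In this pathway insulin-like peptides bind the receptor DAF-2. AGE-1 makes the lipid messenger that recruits PDK-1, AKT-1 and AKT-2 to the membrane, and DAF-18 removes that messenger. PDK-1 phosphorylates and activates the AKT kinases and SGK-1. The activated kinases phosphorylate the FOXO factor DAF-16 and the Nrf-type factor SKN-1, which keeps them out of the nucleus, and the pathway also restrains the heat shock factor HSF-1. It is best known in worms for its control of lifespan, dauer formation, fat storage and stress resistance. Most of this control acts on protein activity and localization, which transcript levels do not measure.

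Values below are normalized counts, gene counts that the authors divided by a size factor for each sample, so that they are comparable between samples of a gene but not between genes of different length. Totals over all genes were between 36330390 and 38381707 normalized counts per sample, and the number of reads behind each value is unknown because whole reads could not be recovered. The labels do not say whether the 4 samples of a group came from separate cultures, so p-values measure the spread between these samples, which may be technical. Markers of intestine, muscle, neurons, hypodermis, germ line, oocytes, sperm and larval cuticle were all detected. The summed germ line markers were lower in rnp-6(G281D) than in wild type on OP50, at 54423 to 55528 against 62093 to 63974 normalized counts. The summed intestinal markers were higher, at 281077 to 302188 against 261974 to 271815. Such a sum is weighted to the genes with the most counts. Of 5 intestinal markers 0 passed the full threshold given below in this comparison, and of 4 germ line markers 1 was lower. The mutant's mean intestinal sum was 288741 on OP50 and 287976 on BW25113. The median log2 fold change of the same markers from OP50 to BW25113 was -0.22 in the mutant. Summed sperm markers lay at 302 to 414 in wild type on BW25113 and 442 to 634 on OP50, and at 196 to 389 and 445 to 798 in rnp-6(G281D). Summed larval cuticle markers were higher in the mutant on BW25113, at 536 to 857 against 319 to 453. In RNA of whole animals, fewer cells of a type and less RNA per cell cannot be told apart. The transcript of rnp-6 itself was at 5236 to 5718 normalized counts in the wild-type samples and at 6798 to 7519 in the mutant samples, which does not check a point mutation.

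None of the 10 genes passed the full threshold, an adjusted p (limma, Benjamini-Hochberg over all 15799 genes) under 0.05 together with an absolute log2 fold change (log2FC, on the log2(normalized count + 1) scale) over 0.5. This held for the mutant against wild type on OP50, where 11.5% of all genes passed, and on BW25113, where 5.68% passed. It also held for the change of diet from OP50 to BW25113 within wild type, where 3.33% passed, within the mutant, where 9.36% passed, and for the interaction of genotype and diet, where 2.42% passed. The largest absolute log2FC of any member was 0.40, for sgk-1 between the diets in rnp-6(G281D). At an unadjusted p under 0.05, limma counted 6 members for the mutation on OP50 and 4 on BW25113, against 39.6% and 29.5% of all genes. For diet it counted 3 in wild type and 2 in the mutant, against 21% (3318 of 15799) and 33% (5217 of 15799), and for the interaction 2, against 17.7%. These counts of diet in the mutant and of the interaction lie near or below the background.

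Smaller differences passed the adjusted p alone. On OP50, sgk-1, hsf-1, daf-2 and daf-16 were higher in rnp-6(G281D), 4 of 10 against a background of 14.3% of genes that were higher at this threshold, and none was lower, against 14.9%. On BW25113 hsf-1 was higher, 1 of 10 against 6.57%, and none lower, against 8.03%. In wild type, pdk-1 and age-1 were higher on BW25113 than on OP50, 2 of 10 against 2.70%, and in rnp-6(G281D) sgk-1 was lower, 1 of 10 against 11.3%. No member had an interaction at this threshold, against 4.66% of genes. The median log2FC of the 10 genes was 0.12 for the mutation on OP50, with 9 of 10 positive, and 0.07 on BW25113, with 7 positive, while the median of all genes was 0.00 in both. For diet it was -0.01 in wild type and -0.02 in the mutant. The comparisons share samples in pairs, so their values are given side by side and are not independent of each other.

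**Figure D1:**
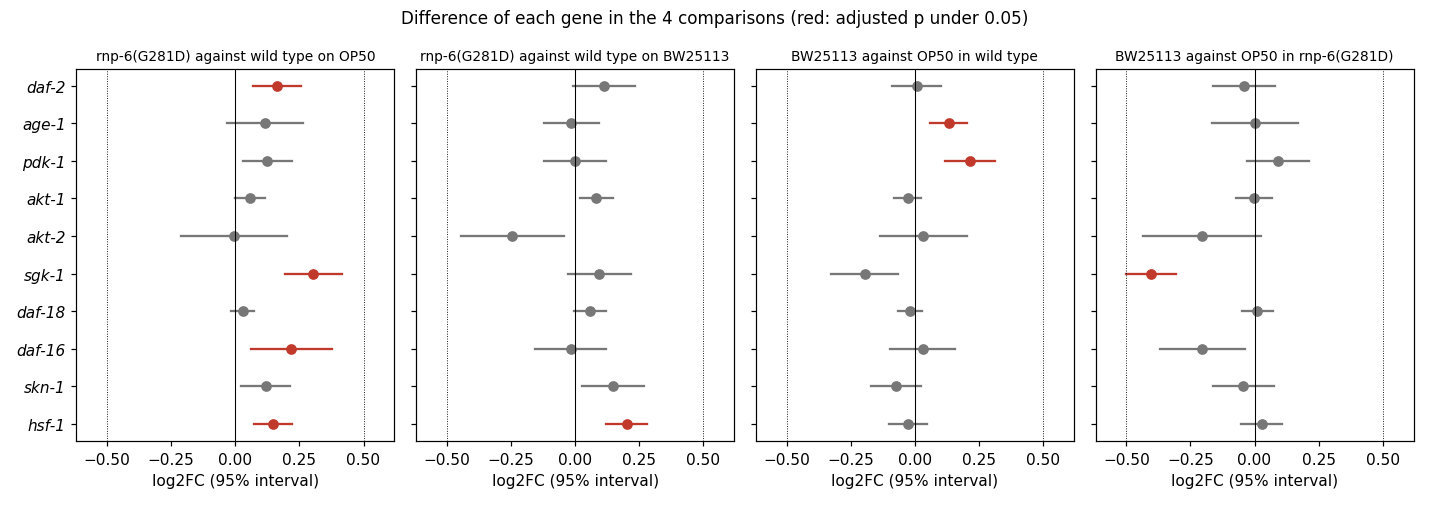
log2FC of the 10 genes (points, with 95% intervals from limma) for the mutation on each diet and for the change from OP50 to BW25113 in each genotype. Red marks an adjusted p under 0.05 and dotted lines the fold threshold of 0.5, which no gene reached. sgk-1 stands farthest from 0 in the first and the last panel, at 0.30 and -0.40.

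sgk-1, on chromosome X at 16254842 to 16262122 (WBcel235, minus strand), encodes the serum and glucocorticoid inducible kinase homolog, which acts beside the AKT kinases and also downstream of TOR complex signalling. It had the widest span of group means of the 10 genes, 0.50 on the log2 scale. The 4 wild-type samples on OP50 held 964, 844, 848 and 869 normalized counts, and the 4 rnp-6(G281D) samples on OP50 held 1065, 1048, 1115 and 1119. On BW25113 the wild-type samples held 795, 802, 787 and 694 and the mutant samples 785, 847, 820 and 831. The mutant samples on OP50 thus lay above all others, while the ranges of the genotypes overlapped on BW25113.

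The mean of sgk-1 rose from 881 ± 56.1 (SD, n = 4) in wild type to 1087 ± 35.4 in rnp-6(G281D) on OP50, a difference of 23.3% (log2FC 0.30, SE 0.05, limma adjusted p = 0.00111). On BW25113 the means were 769 ± 50.4 and 821 ± 26.3, and the log2FC of 0.10 (95% interval -0.03 to 0.22) did not pass (adjusted p = 0.286). Between the diets sgk-1 fell by 24.5% in rnp-6(G281D) (log2FC -0.40, SE 0.04, adjusted p = 1.28e-04). This was the smallest adjusted p of any member. In wild type the log2FC was -0.20 and missed the threshold (adjusted p = 0.0805), although the groups did not overlap (exact permutation p = 0.0286, two-sided, the smallest that 4 against 4 samples can give). Blocking on the replicate number gave an adjusted p of 0.0416 there. The interaction, the difference between the mutant's and the wild type's response to diet, was -0.21 (SE 0.07) with an adjusted p of 0.135. The call of the interaction turned on a single sample. Without replicate 4 of wild type on BW25113, at 694 normalized counts, the interaction was -0.26 with an adjusted p of 0.0373. The germ line and intestinal marker sums differed between the same groups on OP50. Of their single markers, 1 of 4 and 0 of 5 passed the full threshold. The part of these tissues in the result was not tested.

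hsf-1, on chromosome I at 11953507 to 11963085 (minus strand), encodes the heat shock transcription factor. It was the only member that was higher in rnp-6(G281D) on both diets at an adjusted p under 0.05. On OP50 the wild-type samples held 3045, 3006, 2985 and 2871 normalized counts and the mutant samples 3433, 3360, 3274 and 3137. On BW25113 they held 2907, 2950, 2784 and 3063 in wild type and 3367, 3466, 3365 and 3252 in the mutant. Every mutant sample was above every wild-type sample on either diet. The larval cuticle and germ line markers also differed between some of these groups, and their part in the result was not tested.

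The differences in hsf-1 were small and regular. It rose by 10.9% on OP50 (2977 ± 74.8 to 3301 ± 127, log2FC 0.15, SE 0.03, limma adjusted p = 0.00698) and by 14.9% on BW25113 (2926 ± 115 to 3363 ± 87.2, log2FC 0.20, SE 0.04, adjusted p = 0.00387). The log2FC between the diets was -0.03 in wild type and 0.03 in the mutant, and the interaction was 0.05 (95% interval -0.05 to 0.16, adjusted p = 0.644). A difference in hsf-1 between the effects of the mutation on the 2 diets was therefore not detected.

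**Figure D2:**
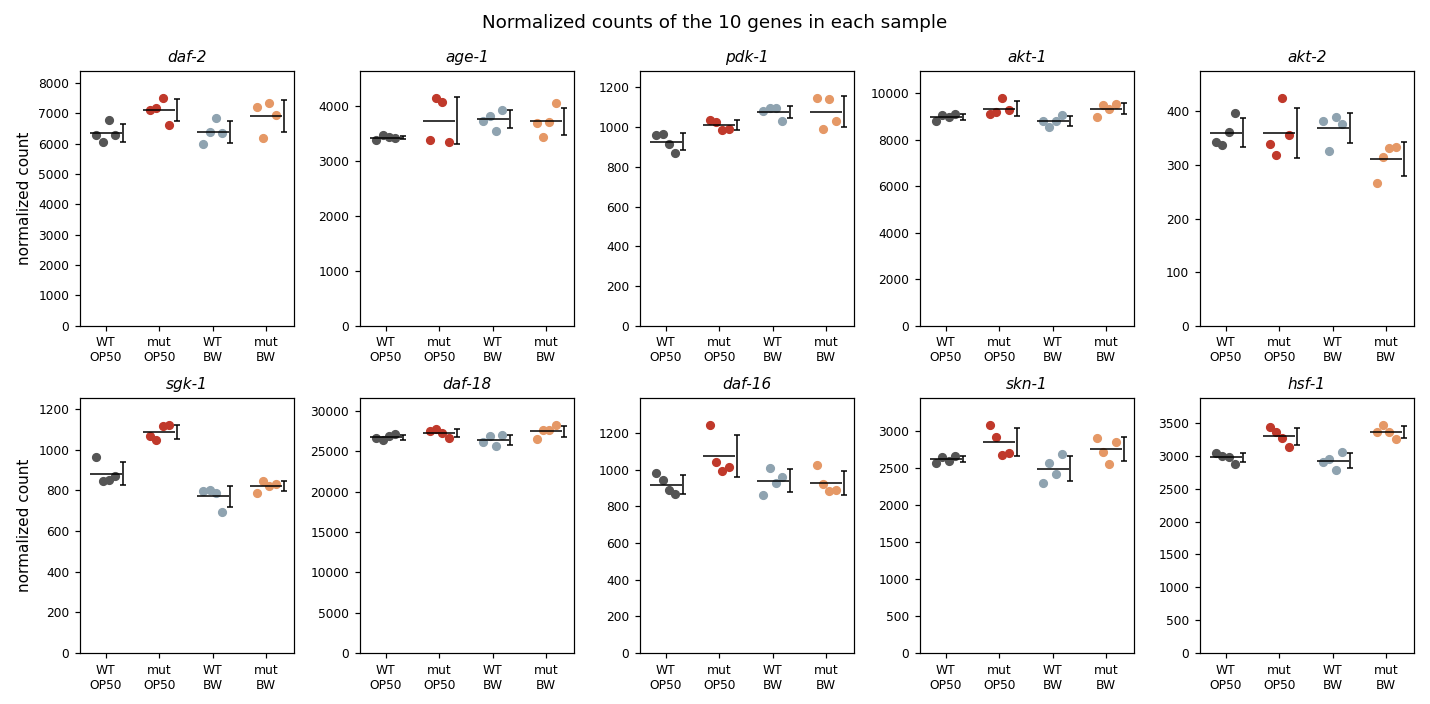
Normalized counts of each of the 10 genes in the 16 samples (points), with the group mean (line) and its SD (bar, n = 4), from an axis that starts at 0. WT is wild type, mut is rnp-6(G281D) and BW is BW25113. The mutant samples on OP50 stand apart for sgk-1, and the mutant samples on both diets lie above wild type for hsf-1.

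daf-2, on chromosome III at 2994514 to 3040846 (minus strand), encodes the insulin/IGF receptor. Its OP50 samples held 6270, 6047, 6771 and 6292 normalized counts in wild type and 7113, 7175, 7497 and 6614 in rnp-6(G281D). The genotypes overlapped, since the lowest mutant sample lay below the highest wild-type one. The mean went from 6345 ± 305 to 7100 ± 365 (n = 4), 11.9% higher with a log2FC of 0.16 (SE 0.04, limma adjusted p = 0.0157). The exact permutation p was 0.0571, two-sided, and the adjusted p was 0.0781 when no filter on low values was applied. On BW25113 the means were 6383 ± 355 and 6910 ± 516 (log2FC 0.11, adjusted p = 0.198). Without replicate 2 of the mutant there, the lowest of its group at 6170 normalized counts, the adjusted p was 0.0409, an omission that favours a call. Neither diet comparison of daf-2 passed, with a log2FC of 0.01 in wild type and -0.04 in the mutant.

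age-1, on chromosome II at 11519328 to 11527054 (minus strand), encodes the catalytic subunit of phosphoinositide 3-kinase. Its normalized counts on OP50 were 3388, 3472, 3437 and 3424 in wild type, a coefficient of variation of 1.02%, and 3387, 4148, 4073 and 3341 in rnp-6(G281D), one of 11.6%. The mutant samples thus fell into a pair near the wild type and a pair well above it. In wild type on BW25113 the counts were 3733, 3821, 3553 and 3937, all above the OP50 samples (log2FC 0.13, SE 0.03, limma adjusted p = 0.0344).

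That difference in age-1 was not present in the second table of the study, FPKM (fragments scaled by gene length and library size), where the same log2FC was -0.00 (adjusted p = 0.991). The FPKM of the 4 mutant samples on OP50 were 12.1, 11.7, 11.99 and 11.3, with no split into pairs. For the other 9 genes the tables moved together over the 16 samples, with Pearson's r between 0.943 and 0.994, but for age-1 r was 0.229. The call was also lost when any sample but replicate 3 of wild type on BW25113 was left out, at adjusted p of 0.0563 to 0.0991, and in the fit of all 16 samples, at 0.267. A pair of protein-coding genes on the opposite strand overlaps age-1, and how the reads there were divided was not tested.

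**Figure D3:**
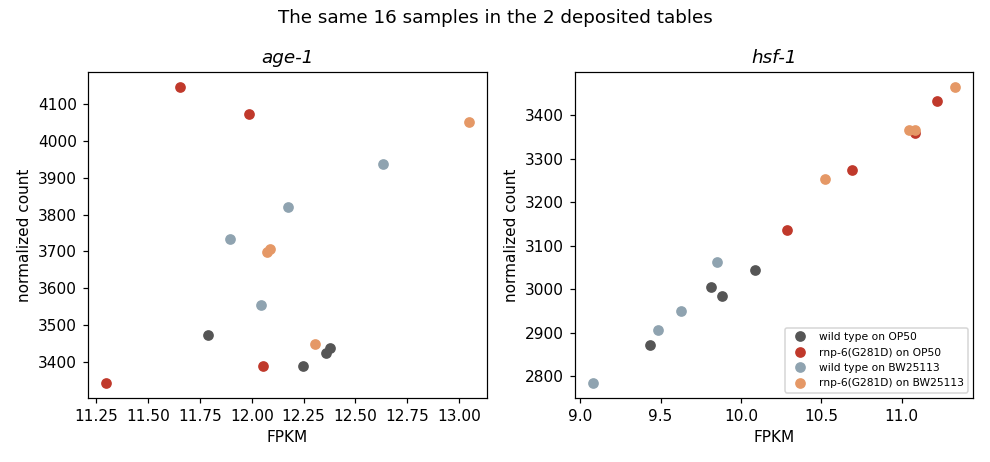
Normalized count against FPKM in the same 16 samples for age-1 and hsf-1, with colours for the 4 groups. For hsf-1 the points follow a line (r = 0.994), and for age-1 they scatter (r = 0.229), with 2 mutant samples on OP50 at 4148 and 4073 normalized counts but 11.7 and 11.99 FPKM.

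pdk-1, on chromosome X at 1321344 to 1327986 (plus strand), encodes the kinase that phosphorylates and activates the AKT and SGK kinases. Its normalized counts were 958, 963, 912 and 870 in wild type on OP50, 1034, 1024, 987 and 990 in the mutant on OP50, 1080, 1094, 1098 and 1028 in wild type on BW25113, and 1145, 990, 1143 and 1031 in the mutant on BW25113. The wild-type samples on OP50 were below all other samples. In wild type the mean was higher on BW25113, at 1075 ± 32.1 against 926 ± 43.8 (log2FC 0.22, SE 0.04, limma adjusted p = 0.0157). The adjusted p was 0.0618 with no filter on low values and 0.0515 without replicate 2 of wild type on BW25113. The mutation on OP50 gave a log2FC of 0.12 that just missed the threshold (limma adjusted p = 0.0536, and 0.0447 with the replicate block). Without replicate 2 of wild type, the highest of its group, the adjusted p was 0.0488, an omission that favours a call. The groups did not overlap (exact permutation p = 0.0286). On BW25113 the genotypes had nearly the same mean, 1075 and 1077 (log2FC 0.00, 95% interval -0.12 to 0.12).

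akt-1, on chromosome V at 10248905 to 10252845 (plus strand), and akt-2, on chromosome X at 14147700 to 14152070 (plus strand), encode the protein kinase B homologs. akt-1 had 8801, 9042, 8969 and 9083 normalized counts in wild type on OP50 and 9102, 9187, 9780 and 9260 in rnp-6(G281D). These groups did not overlap, but the difference was small (log2FC 0.06, limma adjusted p = 0.142). On BW25113 the means of akt-1 were 8801 ± 215 and 9323 ± 244 (log2FC 0.08, adjusted p = 0.0855). Without replicate 1 of the mutant on BW25113, the lowest of that group, the adjusted p was 0.0426. Leaving out the sample nearest the other group favours a call.

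akt-2 was the member with the fewest counts, and no comparison of it passed the test. On BW25113 its samples held 381, 327, 389 and 376 normalized counts in wild type and 266, 314, 332 and 333 in rnp-6(G281D), ranges that overlapped (log2FC -0.24, SE 0.09, limma adjusted p = 0.0964). On OP50 its mean was 360 in either genotype (log2FC -0.01, 95% interval -0.21 to 0.20). The count of akt-1 divided by that of akt-2 in OP50 samples was 25.03 ± 1.65 for wild type and 26.2 ± 2.38 for the mutant (SD, n = 4), and in BW25113 samples 24.0 ± 1.58 and 30.1 ± 2.57. The ratio ran from 28.1 to 33.7 in the last group and from 22.6 to 26.2 in wild type on the same diet, so that the genotypes did not overlap on BW25113. It was not tested.

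daf-18, on chromosome IV at 420011 to 425177 (minus strand), encodes the phosphatase that opposes AGE-1. It had the most counts and the narrowest span of group means of the 10 genes, from 26389 ± 613 in wild type on BW25113 to 27469 ± 698 in rnp-6(G281D) on BW25113, which is 0.06 on the log2 scale. Its log2FC for the mutation was 0.03 on OP50 (95% interval -0.02 to 0.07) and 0.06 on BW25113 (95% interval -0.01 to 0.12). Neither passed (limma adjusted p = 0.350 and 0.204).

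daf-16, on chromosome I at 10750498 to 10776703 (plus strand), encodes the FOXO factor and has 11 annotated transcripts, which the tables do not separate. Its normalized counts were 980, 945, 888 and 866 in wild type on OP50 and 1243, 1041, 994 and 1017 in the mutant on that diet. On BW25113 they were 862, 1012, 926 and 963 in wild type and 1024, 925, 883 and 889 in the mutant. All mutant samples on OP50 were above the wild type on OP50, with replicate 1 well above the rest, and the genotypes overlapped on BW25113.

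The OP50 difference in daf-16 was 16.7% (920 ± 52.1 to 1074 ± 115, log2FC 0.22, SE 0.07, limma adjusted p = 0.0401), and its call depended on single samples. Without replicate 1 of the mutant the log2FC was 0.15 and the adjusted p 0.0661. The adjusted p was also 0.0587 without replicate 2 of the mutant, and 0.0606, 0.0938 and 0.106 without replicates 2, 3 and 4 of wild type. It was 0.138 with no filter on low values, 0.212 in the FPKM table and 0.00632 with the replicate block. On BW25113 the log2FC was -0.02 (adjusted p = 0.895). Diet in rnp-6(G281D) gave -0.20, which did not pass (adjusted p = 0.0857). The adjusted p was 0.0469 without replicate 1 of the mutant on BW25113, the highest of its group, an omission that favours a call. The interaction of -0.23 did not pass either (adjusted p = 0.225). The 6 genes that overlap daf-16 are short noncoding RNAs on the opposite strand. The libraries were stranded, and how the reads there were divided was not tested.

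skn-1, on chromosome IV at 5651039 to 5660384 (minus strand), encodes the Nrf-type factor of detoxification and oxidative stress genes. Its OP50 samples held 2571, 2649, 2600 and 2664 normalized counts in wild type and 3080, 2929, 2678 and 2713 in rnp-6(G281D), without overlap. On BW25113 the samples held 2304, 2568, 2421 and 2693 in wild type and 2915, 2725, 2556 and 2860 in the mutant, with overlap. The mutant means were 8.74% higher on OP50 (log2FC 0.12, SE 0.04, limma adjusted p = 0.0638) and 10.7% higher on BW25113 (log2FC 0.15, SE 0.05, adjusted p = 0.0967, and 0.0477 with the replicate block). Without replicate 3 of the mutant on BW25113, the lowest of that group, the latter was 0.0405, an omission that favours a call. On OP50 the adjusted p was 0.0266 in the FPKM table, 0.0355 with equal totals, and 0.0285 and 0.0425 without replicates 3 and 4 of the mutant, so that the call depended on the table, the scaling and single samples.

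Samples that did not overlap between groups give another count of small shifts. On OP50 pdk-1, akt-1, sgk-1, daf-16, skn-1 and hsf-1 were higher in every mutant sample than in every wild-type sample, 6 of 10 against 14.8% of all genes tested. On BW25113 this held for hsf-1, 1 of 10 against 10.1%. In wild type, age-1 and pdk-1 were higher in all BW25113 samples, 2 of 10 against 5.85%, and sgk-1 was lower in all of them, 1 of 10 against 7.53%. In rnp-6(G281D) sgk-1 was lower in all BW25113 samples, 1 of 10 against 12.9%. Each such gene has an exact permutation p of 0.0286, the smallest of the 70 divisions of 8 samples.

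Levels can be compared between genes per length of their merged exons. By mean normalized count per kilobase over the 16 samples, the order was daf-18 with 8089, akt-1 with 3998, hsf-1 with 1268, age-1 with 932, skn-1 with 906, daf-2 with 806, sgk-1 with 544, pdk-1 with 422, daf-16 with 262 and akt-2 with 147. The kinase akt-1 was therefore represented far above akt-2, and the phosphatase above every kinase. The ranges of age-1 and skn-1 overlapped in all 4 groups, those of skn-1 and daf-2 on BW25113, those of age-1 and daf-2 in rnp-6(G281D) on OP50, and those of sgk-1 and pdk-1 in wild type on BW25113. All other neighbours in the order of a group had ranges that did not overlap. The FPKM table gave daf-2 the eighth and daf-16 the lowest place, at 4.03 and 1.40 FPKM. Over 9661 protein-coding genes the length implied by the FPKM had a median of 0.937 times the genomic span of the gene and 1.53 times its exons, so that genes with long introns stand low in FPKM, and daf-2 spans 46333 bases with 8296 in exons.

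**Figure D4:**
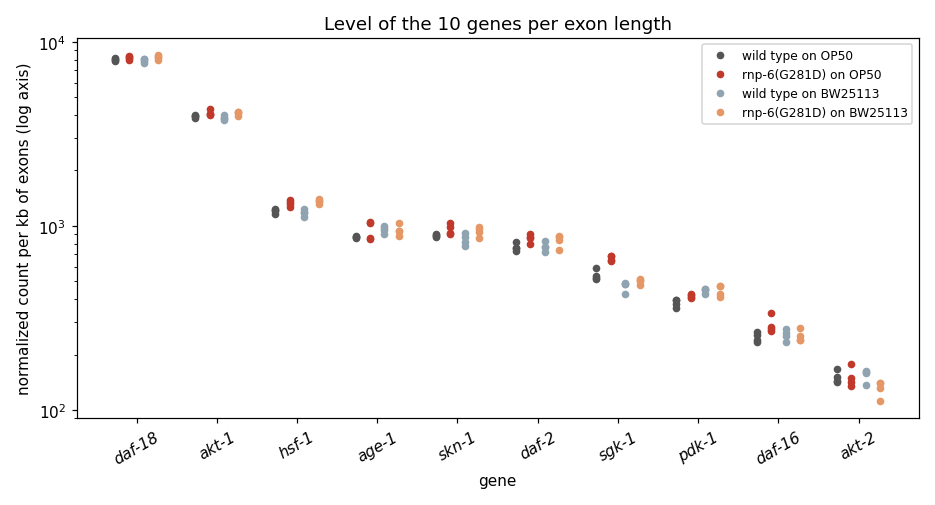
Normalized count per kilobase of merged exons (log axis) of the 10 genes in the 16 samples, ordered by their mean from daf-18 (8089) to akt-2 (147). Colours mark the 4 groups, which lie close together within each gene compared with the distance between most genes.

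The spread between samples of a group was highest for akt-2, with a coefficient of variation of 7.49% to 12.7% over the 4 groups, and lowest for daf-18, with 1.13% to 2.54%. The median over the 10252 genes whose mean count reached 100 was 4.88%. Among the members, the pairs with the highest Pearson's r over the 16 samples were skn-1 and hsf-1 (0.72), daf-18 and hsf-1 (0.71), and daf-16 and skn-1 (0.67). Once group means were subtracted, the last was 0.69 and the first was 0.44. The 5 genes with the pattern most like sgk-1 over the 16 samples were cytb-5.1 (0.94), rege-1 (0.94), R07B7.6 (0.94), swt-7 (0.94) and gba-1 (0.94). For daf-16 they were mvk-1 (0.87), unc-53 (0.86), brp-1 (0.85), lap-2 (0.85) and saeg-1 (0.85). These values describe 16 samples in 4 groups, so that they carry the differences between groups as well, and have no test.

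Of the adaptors, phosphatases and partners of the kinases and of DAF-16, 24 genes were listed and 21 tested, and for the mutation on OP50, where 11.5% of all genes passed the full threshold, 1 was higher and 1 lower, with a median log2FC of 0.03. At the adjusted p alone limma counted 5 higher (pqm-1, ftt-2, par-5, rict-1 and sir-2.1), against 14.3% of all genes, and 4 lower (ist-1, prmt-1, hcf-1 and imb-2), against 14.9%. pqm-1, a zinc finger factor that acts in a complementary way to DAF-16, rose from 450 ± 116 to 1034 ± 209 normalized counts (log2FC 1.21, SE 0.18, limma adjusted p = 6.31e-04). In rnp-6(G281D) pqm-1 was lower on BW25113, at 442 ± 97.8 (log2FC -1.23, adjusted p = 4.55e-04). In wild type the diet gave -0.67 (limma adjusted p = 0.178), and the interaction of -0.55 did not pass (adjusted p = 0.463). The mutation on BW25113 gave 0.66, which did not pass (adjusted p = 0.112). ist-1, the insulin receptor substrate homolog, fell in the mutant on either diet, from 272 ± 5.75 to 182 ± 33.8 on OP50 (log2FC -0.59, adjusted p = 0.00301) and from 276 ± 15.6 to 183 ± 15.6 on BW25113 (log2FC -0.59, adjusted p = 0.00115).

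The regulators of SKN-1 and HSF-1 held no gene past the full threshold on OP50, 0 of 12 and 0 of 3. At the adjusted p alone limma counted 2 of 12 and 1 of 3 as higher, against 14.3% of all genes, and none as lower. Among them was pmk-1, the p38 kinase that activates SKN-1, with a log2FC of 0.13 on OP50 (adjusted p = 0.0406) and 0.21 on BW25113 (adjusted p = 0.0143). sel-11, the other SKN-1 regulator counted, had 0.21 on OP50 (limma adjusted p = 0.00421) and 0.09 on BW25113 (adjusted p = 0.190). ddl-1, a binding partner of HSF-1 that restrains it, had 0.26 on OP50 (adjusted p = 0.00387) and 0.20 on BW25113 (adjusted p = 0.0492).

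Of 13 listed DAF-16 targets 11 were tested, and 4 were higher and none lower at the full threshold in rnp-6(G281D) on OP50 (median log2FC 0.41), against 11.5% of all genes. At the adjusted p alone 5 were higher, against 14.3% of all genes, and 2 lower, against 14.9%. The lower ones were lys-7 (log2FC -0.36, limma adjusted p = 0.00499) and aqp-1 (log2FC -0.31, adjusted p = 0.00196). Those past the full threshold were ctl-1, a catalase (1207 ± 117 to 1814 ± 61.7 normalized counts, log2FC 0.59, limma adjusted p = 5.80e-05), dod-3 (90.5 ± 50.1 to 348 ± 107, log2FC 2.04), the noncoding RNA tts-1 (866 ± 258 to 2052 ± 422, log2FC 1.27) and icl-1 of the glyoxylate cycle (6865 ± 1207 to 10760 ± 1339, log2FC 0.66). In rnp-6(G281D) 7 of the 11 were lower on BW25113 than on OP50 and none higher (median -0.93), against 9.36% of all genes. In wild type 2 were lower on BW25113 (median -0.48), against 3.33%. The interaction passed the full threshold for 1 of 11, ctl-1 (log2FC -0.75, limma adjusted p = 8.44e-05), against 2.42% of all genes. At the adjusted p alone the interaction was negative for 2 and positive for 1, against 4.66% in either direction. The mutation on BW25113 gave none at the full threshold (median -0.03), against 5.68%. At the adjusted p alone it gave 1 lower, ctl-2, against 8.03%, and none higher, against 6.57%. sod-3, the target most used as a reporter, had a log2FC of 0.41 on OP50 that did not pass (adjusted p = 0.125). The intestinal marker sum was also higher in the mutant on OP50, although 0 of its 5 markers passed the full threshold. The part of this tissue in these counts was not tested.

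Of the 9 SKN-1 targets, 1 was higher and 2 lower at the full threshold on OP50, against 11.5% of all genes, with a median of -0.00. gst-38 rose from 34.1 ± 3.66 to 153 ± 13.4 normalized counts (log2FC 2.13, limma adjusted p = 1.60e-06), while nit-1 (log2FC -0.70) and gst-10 (log2FC -0.60) fell. From OP50 to BW25113 in rnp-6(G281D), 1 of 9 was higher and 1 lower at the full threshold, against 9.36% of all genes. These were gst-10 (log2FC 1.18, limma adjusted p = 5.25e-06) and gst-38 (log2FC -1.83, adjusted p = 1.52e-04). In wild type the diet gave gst-10 a log2FC of 0.77 and gst-38 one of 0.09. gst-4, the glutathione S-transferase used as a SKN-1 reporter, was higher by 0.38 on the log2 scale on either diet, below the fold threshold (adjusted p = 3.22e-04 on OP50 and 0.0188 on BW25113).

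Of the 14 HSF-1 targets tested none passed the full threshold, although their median log2FC on OP50 was -0.53. At the adjusted p alone limma counted 1 higher (hsp-1), against 14.3% of all genes, and 4 lower, against 14.9%. The lower ones were hsp-110, daf-21, dnj-12 and dnj-13, with log2FC of -0.17, -0.08, -0.12 and -0.14. In rnp-6(G281D) these were higher on BW25113 than on OP50, with log2FC of 0.16, 0.17, 0.17 and 0.19 (limma adjusted p of 0.00275 to 0.0131). Both comparisons use the mutant samples on OP50, so the rise is not independent of the fall. In wild type the diet gave these genes 0.02, 0.07, 0.10 and 0.09. None of their interactions passed (limma adjusted p of 0.117 to 0.529). In the mutant no target was lower on BW25113 at the adjusted p alone, against 11.3% of all genes. The share of all genes that were higher is not given. The inducible heat shock genes, 7 with the copies hsp-16.48 and hsp-16.49 counted once, were all highest in replicate 4 of wild type on OP50. hsp-16.2 ran from 31.4 to 425 normalized counts in the wild-type samples on OP50. Without that sample, left out after its values were seen, the median was -0.08, with 2 higher and 3 lower at the adjusted p alone. The shares of all genes in that fit are not given. Replicate 4 held the lowest hsf-1 count of its group, 2871 normalized counts. The near-identical hsp-16.48 and hsp-16.49 had the same values in every sample, so their reads could not be told apart. The 14 targets and the medians above count both genes.

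**Figure D5:**
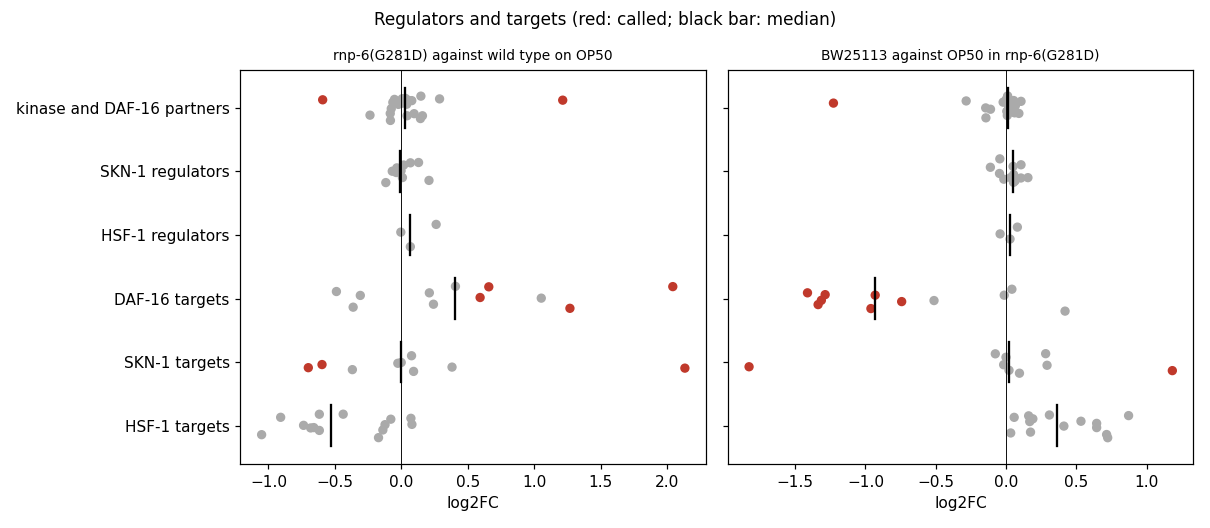
log2FC of the tested regulators and targets (points) for the mutation on OP50 (left) and for BW25113 against OP50 in the mutant (right). Red marks genes past the adjusted p and the fold threshold, and the bar the median of each list. DAF-16 targets have a median of 0.41 in the left panel and -0.93 in the right one.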

How the data were processed

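RNA-seq of 16 whole-animal samples, 4 per group, was used. Per the labels the libraries were stranded and depleted of ribosomal RNA. The authors quantified reads with Kallisto against WBcel235 and compared the groups pairwise with DESeq2. In their processing notes the submitters name kallisto 0.46.1, DESeq2 1.24 and Cufflinks 2.2.1. The authors deposited normalized counts, a signal per gene made by dividing gene counts by the median-of-ratios size factor of each sample, and, for a subset of genes, FPKM. The deposited FPKM were used only as an alternative.

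The low normalized counts of a sample were whole multiples of one step (within 0.1) for 9.54% to 86.1% of values. Whole reads were therefore not recovered, no count test was run and no interval of counting error is given.

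Genes with a mean of at least 10 normalized counts over the 16 samples (15799) were tested on log2(normalized count + 1) with limma 3.58.1 (trend, two-sided) in R 4.3.3, with Benjamini-Hochberg adjustment over all of them. Fits of 2 groups used their 8 samples, and the interaction used all 16. The full threshold joins the cut-offs stated in the study, 0.05 for the adjusted p and 0.5 for the absolute log2FC. Exact permutation tests used the 70 divisions of 8 samples. The procedure was tested on simulated data. Values were tabulated with pandas 2.3.3 and drawn with matplotlib 3.10.9.

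Equally numbered samples deviated together over 10252 genes in 3 comparisons, with correlations of 0.197 to 0.299 for genotype on OP50, 0.104 to 0.470 on BW25113 and 0.212 to 0.564 for diet in wild type. For diet in rnp-6(G281D) they were -0.06 to 0.27, so the numbers do not pair the samples there. The main fits took no pairs in any comparison. The pairing comes from the data and not from a statement in the labels. The replicate block was an alternative to the main fit, as were other pseudocounts, filters and scalings, the FPKM table and leaving out each sample.

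The members and lists were chosen with earlier results of these data known. All members are named. From each list, up to 4 genes with the smallest adjusted p among those called on OP50 are named. The other list genes were named after their values were seen. Coordinates are from Ensembl 115 on WBcel235. daf-21 was found under its newer name hsp-90. No gene sequence was used here.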

Additional observations from a re-analysis of the deposited data

Results flagged for a closer look

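In wild type on BW25113, replicate 4 held 694 normalized counts of sgk-1, below the other 3 samples at 787 to 802. Its gap to the nearest sample was 0.869 of the range of the group, above Dixon's 95% critical value for 4 samples. Over the 40 groups examined (10 genes in 4 groups) this was the only one past that value, and chance gives about 2.0. The same sample turned the call of the sgk-1 interaction, which had an adjusted p of 0.0373 without it and 0.135 with it (limma).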

How the results depend on the processing

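No member passed the full threshold in any of the 5 comparisons under any alternative run that kept the fold threshold. Without it the counts were 4 for genotype on OP50, 1 on BW25113, 2 for diet in wild type and 1 in the mutant. Following the counts at the adjusted p alone was chosen after seeing the data. With no filter on low values they were 2 for genotype on OP50 and 0 for diet in wild type, where more genes enter the adjustment. For diet in wild type the count was also 1 with equal totals and 1 with FPKM. With the replicate block the count was 2 for genotype on BW25113 (skn-1 beside hsf-1) and 2 for diet in rnp-6(G281D) (daf-16 beside sgk-1, adjusted p = 0.0167, where the numbers do not pair the samples). One fit of all 16 samples also gave 2 in each, and equal totals 2 for diet in rnp-6(G281D). For genotype on OP50 the count was 3 with quantile normalization, 5 with the replicate block and 6 with equal totals, and for diet in wild type it was 3 with the block. Leaving out 1 sample gave 3 to 5 for genotype on OP50, 1 to 2 for genotype on BW25113, 0 to 2 for diet in wild type, 1 to 2 in rnp-6(G281D) and 0 to 1 for the interaction. The shares of all genes in these alternative runs are not given, so their counts cannot be set against a background. Of the 8 member results past the adjusted p, age-1 between the diets in wild type was the only one that changed sign, to -0.000942 with FPKM. Others, which had missed it, changed sign too, such as age-1 for genotype on OP50 (0.12 to -0.05 with FPKM) and its interaction (-0.13 to 0.08). The cause was not tested. The sgk-1 and hsf-1 calls on OP50, hsf-1 on BW25113 and sgk-1 between the diets in rnp-6(G281D) passed in all alternatives run. No scaling moved the median of all genes by over 0.1 on the log2 scale. The depth is unknown, and 4 samples a group limit the precision.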
